A study of Mus musculus with 9 samples.

Results

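The genes described here are receptors through which luminal cells of the mammary gland read steroid hormones, together with Greb1, a gene known for its response to estrogen. They are Pgr, Esr1, Nr3c1, Nr3c2, Vdr, Greb1 and Pgrmc1, 7 genes taken by name out of the 27179 in the count table, and all 7 passed the filter on low counts. RNA was sequenced from sorted mouse mammary luminal cells of adult tissue, in 3 populations with 3 libraries each. HR-negative LP cells carried the surface protein CD14 and lacked the PR-cre/YFP reporter. HR-positive LP cells carried both. ML cells lacked CD14, and their sample titles give them as YFP positive where the design text of the series gives YFP negative; the titles were used here. Lineage-positive cells had been removed in all 3 populations. Strain, estrous stage, animals per library and the time at which PR-cre acted are not in the labels used here. Nothing in the labels says that the 3 libraries of a population came from separate animals, so p-values measure the spread between these libraries, which may be technical.

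Nuclear steroid receptors are transcription factors that bind a small lipid hormone, pair up and attach to DNA at short repeated motifs. In the mammary epithelium estrogen and progesterone receptors are known to be made by a subset of luminal cells, which pass the signal to neighbouring cells through secreted factors. Glucocorticoid, mineralocorticoid and vitamin D receptors answer other ligands, and the glucocorticoid receptor is known for its part in milk gene expression.

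Promoters are shown for 1 gene of each pattern found among the members: Esr1 (lowest in HR-negative LP), Vdr (lowest in ML) and Pgrmc1 (level). Each sequence is the 250 bases before the first listed start, 5′ to 3′ on the gene's strand, from RefSeq on GRCm38.p6. Capitals mark GGGCGG or its reverse complement CCGCCC, the GC box bound by Sp1.
Esr1, chr10:4611739-4611988, plus strand: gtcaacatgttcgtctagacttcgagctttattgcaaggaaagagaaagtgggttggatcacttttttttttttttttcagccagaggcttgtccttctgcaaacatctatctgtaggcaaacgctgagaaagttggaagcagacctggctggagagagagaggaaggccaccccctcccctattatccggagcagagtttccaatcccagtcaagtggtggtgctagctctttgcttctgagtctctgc
Vdr, chr15:97908297-97908546, minus strand: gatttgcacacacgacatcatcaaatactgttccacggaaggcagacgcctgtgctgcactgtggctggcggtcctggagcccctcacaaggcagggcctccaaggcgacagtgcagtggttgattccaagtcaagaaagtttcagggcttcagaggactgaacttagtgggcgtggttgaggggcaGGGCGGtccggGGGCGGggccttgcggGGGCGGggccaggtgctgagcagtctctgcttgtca
Pgrmc1, chrX:36597943-36598192, plus strand: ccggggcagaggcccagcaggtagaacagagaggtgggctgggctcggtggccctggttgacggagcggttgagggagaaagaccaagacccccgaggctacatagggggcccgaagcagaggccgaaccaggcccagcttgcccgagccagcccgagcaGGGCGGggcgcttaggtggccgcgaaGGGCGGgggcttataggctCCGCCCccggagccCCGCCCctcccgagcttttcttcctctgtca
The GC box was found 0 times in the Esr1 window, 3 times in that of Vdr and 4 times in that of Pgrmc1, and in 32.7% of 32851 promoter windows of this length. G and C made up 47.6%, 61.2% and 69.6% of the 3 windows, beside a median of 52.4% over all windows. The core of the estrogen response element, GGTCA on either strand, was absent from these 3 windows. It was present 2 times in the Nr3c2 window, ending 130 and 44 bases before the listed start, 1 time in the first Greb1 window (83 bases) and 2 times in the second (189 and 80 bases). The Nr3c2 and Greb1 gene spans reach upstream of these listed starts, so the windows of both genes may hold transcribed bases. That core was in 35.2% of all windows. The full estrogen response element GGTCANNNTGACC, which holds the core on both strands, was in 0.0639% of windows, and GNACANNNTGTNC, the form bound by glucocorticoid and progesterone receptors, in 0.387%. Neither was in any of the 8 windows found for 6 members. The Pgr window and the second Esr1 window, not shown, also lie inside their gene spans and may hold transcribed bases. A match is a run of letters only, and its absence says nothing of other regions.

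Levels are TMM-scaled CPM, read counts scaled to a common library size with a correction for composition. Where 3 values or ranges follow each other without names, their order is HR-negative LP, then HR-positive LP, then ML. Libraries held 27219103 to 108119756 counts. Summed luminal markers (6 genes) overlapped across the populations, at 13846 to 15712, 11742 to 15364 and 11760.1 to 14520.1 CPM. Within that sum single genes moved in opposite directions. Epcam (3368 to 3778, 1578 to 2143 and 1174 to 1429 CPM), Cldn3 and Cldn7 were highest in HR-negative LP. Krt19 was lowest there (2725 to 2931, 3602 to 4736 and 3927 to 4671 CPM), and Krt8 and Krt18 overlapped between the LP populations. Summed luminal progenitor markers were at 6362 to 7027, 1970.4 to 2126 and 66.3 to 117 CPM. That sum includes Cd14 (995 to 1180, 284 to 348 and 18.3 to 30.3 CPM), whose protein was used in the sort. Summed hormone sensing markers were at 196 to 464, 5760 to 6898 and 8338 to 10843 CPM. Basal markers (8 genes) summed to at most 70.0 CPM in any library, immune markers (7 genes) to at most 2.001 CPM and adipocyte markers (5 genes) to at most 5.22 CPM. HR-negative LP replicate 3 stood apart on the second principal component (10.1% of the variance), at 91.6 against -15.8 and -39.5 for the other HR-negative LP libraries. In sorted bulk samples, fewer cells of a type and less RNA per cell cannot be told apart.

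The ovarian hormone receptor genes were high in both YFP-positive populations and low in HR-negative LP. Pgr (gene ID 18667, mm10 chromosome 9, 8898900 to 8968611) encodes the progesterone receptor and gives the PR-cre reporter its name. Its differences between HR-negative LP and both populations titled YFP positive are therefore in part what the sort selected. HR-negative LP libraries had 6.32, 15.8 and 6.12 CPM of Pgr, those of HR-positive LP 204, 329 and 303, and those of ML 276, 557 and 471. HR-negative LP lay below all other libraries, and ML replicate 1 fell among the HR-positive LP libraries. Esr1 (gene ID 13982, chromosome 10, 4611989 to 5005633) encodes estrogen receptor alpha. HR-negative LP libraries had 8.98, 20.6 and 15.6 CPM of Esr1, those of HR-positive LP 119.6, 116 and 133, and those of ML 158, 166 and 164. No 2 populations overlapped for Esr1, and its ML libraries were close together (162 ± 4.12 CPM, SD, n = 3).

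**Figure D1:**
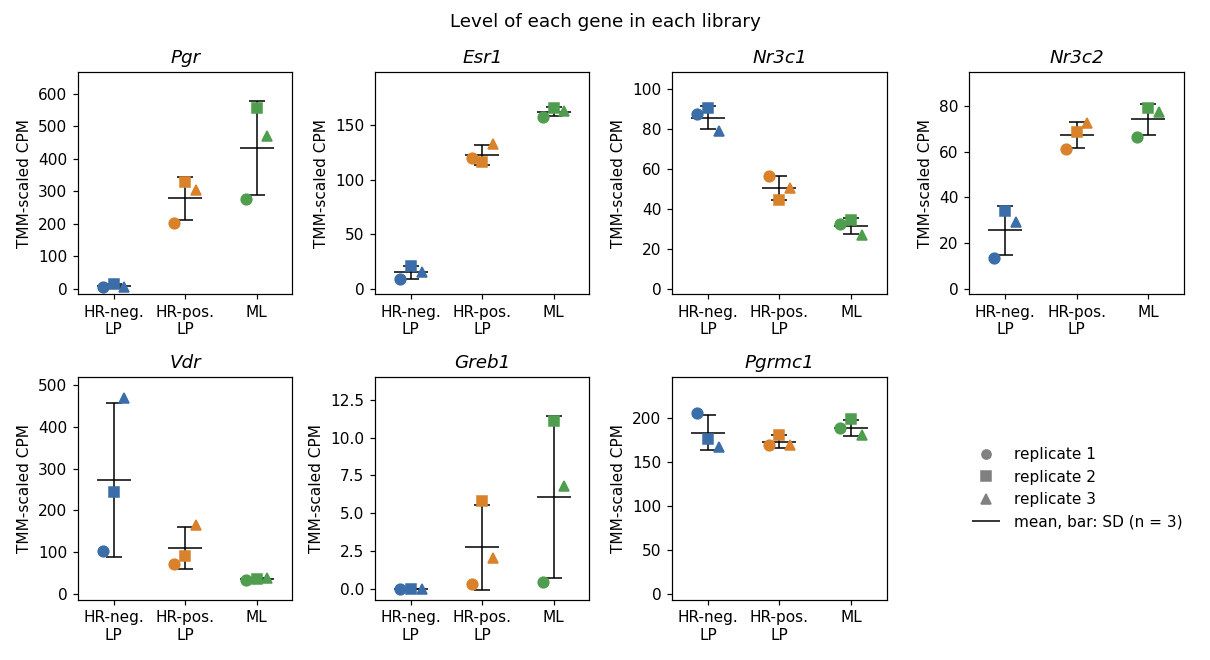
TMM-scaled CPM (vertical axes) of the 7 genes in the 9 libraries, by population; points are replicates, with the mean and SD of 3 libraries. Pgr, Esr1, Nr3c2 and Greb1 are lowest in HR-negative LP, Nr3c1 and Vdr are lowest in ML, and Pgrmc1 overlaps across all populations.

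Greb1 (gene ID 268527, chromosome 12, 16670615 to 16801394), which encodes a cofactor of the estrogen receptor, was almost without reads in HR-negative LP and uneven in the other populations. Its counts there were 0, 1 and 0, and a count of 0 allows up to 0.0605 CPM in replicate 1 and 0.107 CPM in replicate 3. HR-positive LP libraries had 38, 375 and 186 counts (0.362, 5.83 and 2.04 CPM) and ML libraries 13, 521 and 288 (0.435, 11.1 and 6.78 CPM). Replicate 1 was lowest and replicate 2 highest in both populations, as for Pgr, and the SD was 102% of the mean in HR-positive LP and 87.8% in ML. Of the 50-base windows of Greb1 transcripts 5.73% also occur in other genes, so its low counts are uncertain.

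Other cell-type markers moved with some of these libraries. Dcn, a fibroblast matrix gene, had 252, 49.9 and 83.3 CPM in the HR-positive LP libraries and 299.8, 72.7 and 85.5 CPM in those of ML, highest in replicate 1 of both, where Greb1 and Pgr were lowest. Dcn did not exceed 10.3 CPM in HR-negative LP. Other fibroblast markers were highest in HR-negative LP: Col3a1 was at 25.1 to 46.1, 2.58 to 10.2 and 7.10 to 15.3 CPM, Col1a2 at 12.7 to 25.6, 1.68 to 4.25 and 4.55 to 7.25 CPM, and Pdgfra at 11.2 to 21.4, 3.17 to 4.96 and 0 to 1.15 CPM. Summed over 7 fibroblast markers the ranges were 74.4 to 121, 61.5 to 267 and 107 to 318 CPM. Summed endothelial markers (6 genes) followed the order of Pgr and Esr1, at 6.69 to 12.2, 40.6 to 62.9 and 59.4 to 80.6 CPM. Vwf alone was at 1.43 to 5.41, 34.6 to 60.3 and 53.5 to 74.96 CPM, most of the sum in the YFP-positive populations and the smaller part of it in HR-negative LP. The defining endothelial genes Cdh5 and Kdr were at or below 1.63 and 0.636 CPM in each library. The part of these markers in the receptor levels was not tested.

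The remaining nuclear receptor genes divided by direction. Nr3c2 (gene ID 110784, chromosome 8, 76898083 to 77245012) encodes the mineralocorticoid receptor. HR-negative LP libraries had 13.6, 34.2 and 29.2 CPM of Nr3c2, those of HR-positive LP 61.1, 68.5 and 72.4, and those of ML 66.4, 79.0 and 77.1. HR-negative LP was below the rest, and HR-positive LP and ML overlapped. Nr3c1 (gene ID 14815, chromosome 18, 39410545 to 39519421), the glucocorticoid receptor gene, ran the other way. HR-negative LP libraries had 87.4, 90.5 and 79.1 CPM of Nr3c1, those of HR-positive LP 56.5, 44.4 and 50.5, and those of ML 32.4, 34.6 and 26.9. No 2 populations overlapped.

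Vdr (gene ID 22337, chromosome 15, 97854427 to 97908296), the vitamin D receptor gene, was uneven within the CD14-positive populations. HR-negative LP libraries had 103, 245 and 469 CPM of Vdr, those of HR-positive LP 71.3, 90.2 and 166, and those of ML 33.2, 35.9 and 36.7. Both LP populations overlapped and all ML libraries lay below them, with an SD of 67.7%, 46.0% and 5.21% of the mean. Pgrmc1 (gene ID 53328, chromosome X, 36598193 to 36606079) encodes a membrane-bound heme protein named for progesterone binding and is no nuclear receptor. HR-negative LP libraries had 205, 177 and 168 CPM of Pgrmc1, those of HR-positive LP 169, 181 and 169.8, and those of ML 188, 199 and 181, with overlap throughout.

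Per length, the leading transcript among the 5 nuclear receptor genes was Vdr in HR-negative LP and Pgr in the other populations. Divided by the deposited gene length, the 5 nuclear receptor genes summed to 87.2 ± 44.0, 118 ± 20.5 and 132 ± 23.9 CPM per kb (SD, n = 3). Vdr held 54.0%, 65.5% and 81.7% of the sum in the HR-negative LP libraries, 16.8%, 17.4% and 27.5% in those of HR-positive LP and 5.42% to 7.23% in those of ML. Pgr held 1.81% ± 1.03, 34.1% ± 5.25 and 46.9% ± 7.96, and Esr1 4.34% ± 1.44, 24.4% ± 3.48 and 29.1% ± 4.91. These shares add up to the whole and so depend on each other, and they depend on the gene lengths used. Pgrmc1, which is no nuclear receptor, was left out of the sum. Its mean levels of 99.7, 94.3 and 103 CPM per kb were above those of the leading nuclear receptor gene. In HR-negative LP replicate 3 Vdr was above Pgrmc1 (108 against 91.2 CPM per kb).

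Among the nuclear receptor genes, the order of mean levels in HR-negative LP was Vdr (62.5 ± 42.4 CPM per kb), Nr3c1 (13.5 ± 0.932), Nr3c2 (6.28 ± 2.62), Esr1 (3.49 ± 1.35) and Pgr (1.37 ± 0.804). Neighbours from Nr3c2 down to Pgr overlapped in that order, and Vdr and Nr3c1 did not overlap with the next. In ML the order was Pgr (63.1 ± 20.9 CPM per kb), Esr1 (37.6 ± 0.955), Nr3c2 (18.2 ± 1.66), Vdr (8.11 ± 0.422) and Nr3c1 (4.95 ± 0.628), with no overlap between neighbours. In HR-positive LP Pgr (40.4 ± 9.55 CPM per kb), Esr1 (28.4 ± 2.04), Vdr (25.1 ± 11.5) and Nr3c2 (16.5 ± 1.41) each overlapped with the next, and Nr3c1 (7.97 ± 0.953) lay below them.

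**Figure D2:**
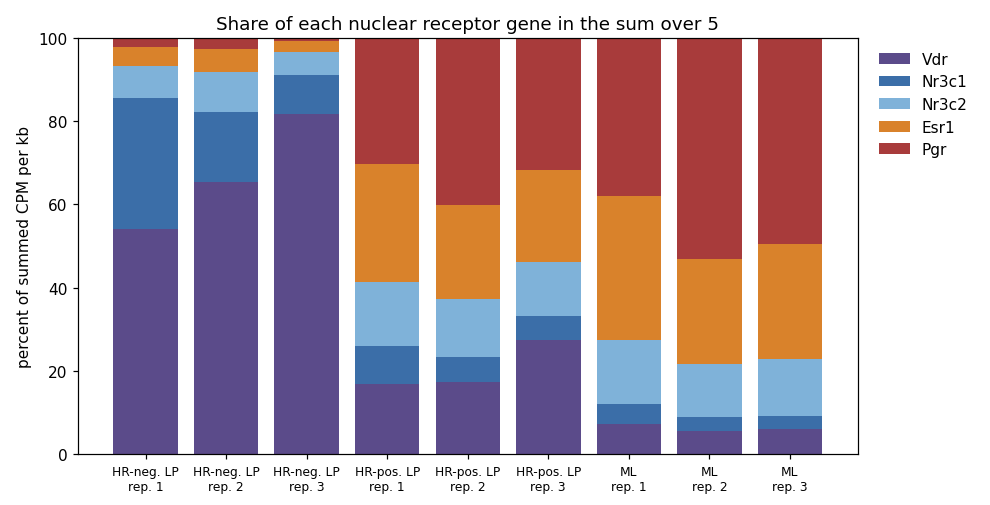
Percent of the summed CPM per kb of 5 nuclear receptor genes (vertical axis) held by each gene in each of the 9 libraries. Vdr fills between 54.0% and 81.7% of the HR-negative LP bars and at most 7.23% of the ML bars.

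Between HR-positive and HR-negative LP, 6 of the 7 members differed by edgeR's quasi-likelihood test, where 29.9% of 15910 tested genes did. Pgr, Esr1, Nr3c2 and Greb1 were higher in HR-positive LP (4 members, beside 17.2% of tested genes), and Nr3c1 and Vdr were lower (2 members, beside 12.8%). Pgr was 29.2-fold higher (log2 fold change 4.87, SE 0.43, edgeR adjusted p = 1.97e-05) and Esr1 8.14-fold higher (3.02, SE 0.25, edgeR adjusted p = 1.28e-05). Nr3c2 was 2.62-fold higher (1.39, SE 0.27, edgeR adjusted p = 0.00305), and Nr3c1 was 1.70-fold lower (-0.76, SE 0.14, edgeR adjusted p = 0.00261). The groups did not overlap for 5 members, beside 43.9% of tested genes. Without HR-negative LP replicate 3, Pgr, Esr1, Nr3c2 and Nr3c1 had log2 fold changes of 4.65, 3.05, 1.49 and -0.82 and passed.

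Greb1 passed with edgeR (adjusted p = 0.00394) and not with limma voom (adjusted p = 0.183). The ratio of its pooled CPM was 403, with an exact 95% interval of 72.0 to 15940.3 that covers counting error only. Vdr had a log2 fold change of -1.32 (SE 0.45, edgeR adjusted p = 0.0486), and its call depended on the libraries and the model used. Without HR-negative LP replicate 3, where Vdr was highest, it was -0.67 (edgeR adjusted p = 0.217). The call was also lost without HR-negative LP replicate 2, HR-positive LP replicate 1 or 2, or any 1 ML library, with edgeR adjusted p from 0.0662 to 0.159. It was kept without HR-negative LP replicate 1 (edgeR adjusted p = 0.0041) or HR-positive LP replicate 3 (0.0262). A replicate block, a pairing by number that no label gives, also kept it (edgeR adjusted p = 0.0120). Over all alternatives the Vdr call was kept in 8 and lost in 10. Pgrmc1 did not pass, with a ratio of 0.946 and a 95% interval of 0.784 to 1.14.

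**Figure D3:**
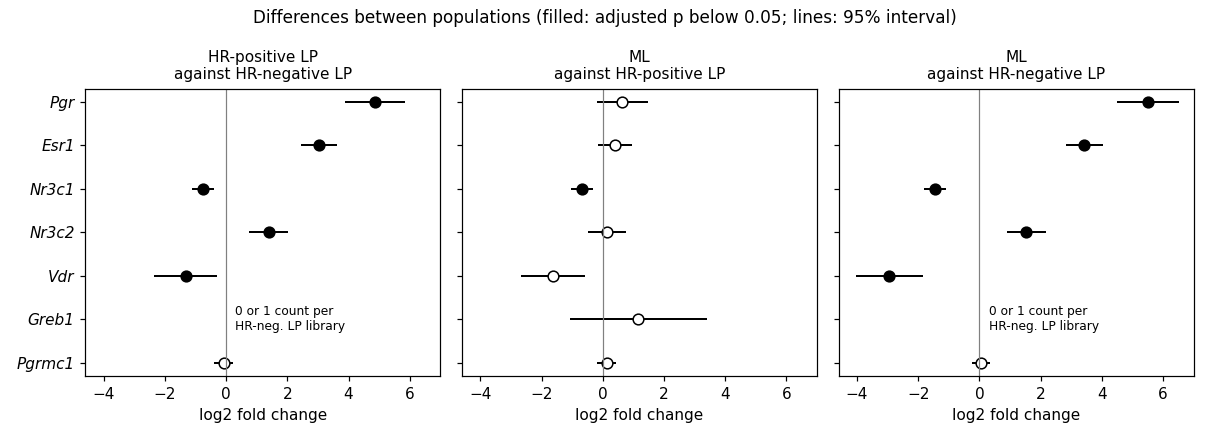
Log2 fold change (horizontal axis) of each gene in the 3 comparisons from edgeR, with 95% intervals; filled points passed an adjusted p of 0.05, and Greb1 has no point against HR-negative LP, where it had 0 or 1 count per library. Pgr, Esr1 and Nr3c2 lie right of 0 and Nr3c1 and Vdr left of 0 in both comparisons with HR-negative LP, and between ML and HR-positive LP Nr3c1 is the 1 filled point.

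ML and HR-negative LP differed in 6 members, beside 44.6% of tested genes. This comparison uses the same HR-negative LP libraries as the one before, and its Pgr difference is again in part what the sort selected. Pgr, Esr1, Nr3c2 and Greb1 were higher in ML (4 members, beside 23.3% of tested genes) and Nr3c1 and Vdr lower (2 members, beside 21.3%), and these 6 did not overlap, beside 53.1%. Pgr was 45.6-fold higher (log2 fold change 5.51, SE 0.45, edgeR adjusted p = 2.55e-06), Esr1 10.8-fold (3.43, SE 0.26) and Nr3c2 2.89-fold (1.53, SE 0.27). Vdr was 7.71-fold lower (-2.95, SE 0.48, edgeR adjusted p = 0.000485) and Nr3c1 2.74-fold lower (-1.45, SE 0.15, edgeR adjusted p = 1.37e-05). Without HR-negative LP replicate 3, Vdr was at -2.30 (edgeR adjusted p = 0.0008). The pooled Greb1 ratio was 1207, with a counting interval of 216 to 47725 (adjusted p = 0.000964 with edgeR and 0.0886 with limma voom). Pgrmc1 did not pass, with a ratio of 1.03 and a 95% interval of 0.855 to 1.25.

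Between ML and HR-positive LP 1 member passed, beside 6.79% of tested genes. Nr3c1 was 1.61-fold lower in ML (log2 fold change -0.69, SE 0.15, edgeR adjusted p = 0.0125), beside 6.7% of tested genes that were lower. The call was lost without HR-positive LP replicate 1 (edgeR adjusted p = 0.0728), HR-positive LP replicate 3 (0.0509) or ML replicate 3 (0.0719). The number of members higher in ML was 0 by edgeR, beside 0.0943% of tested genes. It was also 0 by DESeq2 and 0 by limma voom, which gave 88 and 50 genes higher. At an unadjusted p below 0.05 it was 0 as well, and the share of all genes was not taken there. The 95% interval of the ML to HR-positive LP ratio was 0.889 to 2.74 for Pgr, 0.927 to 1.88 for Esr1, 0.735 to 1.65 for Nr3c2, 0.905 to 1.32 for Pgrmc1 and 0.483 to 10.4 for Greb1. The ratio of Vdr was 0.323 (95% interval 0.160 to 0.652, edgeR adjusted p = 0.0649), and it passed without HR-negative LP replicate 1 (0.0094) or 3 (0.0174). Esr1, Nr3c1 and Vdr did not overlap between the groups, beside 27% of tested genes.

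Libraries of equal number deviated together in this comparison, and the replicate block changed which members passed. The pairing by number was inferred from these same expression values and is in no label. Over all 9 libraries the block also takes HR-negative LP as paired. ML stood above the HR-positive LP library of its number for Pgr (1.35, 1.69 and 1.55 times), Esr1 (1.32, 1.43 and 1.23), Greb1 (1.20, 1.90 and 3.33), Nr3c2 (1.09, 1.15 and 1.06) and Pgrmc1 (1.11, 1.10 and 1.06). ML stood below it for Vdr (0.466, 0.399 and 0.221) and Nr3c1 (0.574, 0.780 and 0.532). With the replicate block over all 9 libraries Vdr passed as well as Nr3c1 (Vdr log2 fold change -1.48, SE 0.30, edgeR adjusted p = 0.0134), beside 0.446% of tested genes higher and 7.88% lower. With the block on these 2 groups alone, an alternative added after the data were seen, 3 members were higher and 2 lower in ML, beside 9.2% and 14.1% of 15458 tested genes. Pgr then had a log2 fold change of 0.61 (SE 0.07, edgeR adjusted p = 0.000138), Esr1 0.41 (SE 0.06, edgeR adjusted p = 0.000961) and Greb1 1.10 (SE 0.30, edgeR adjusted p = 0.0234). Vdr had -1.54 and Nr3c1 -0.68, while Nr3c2 and Pgrmc1 did not pass (edgeR adjusted p = 0.151 and 0.134).

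On the path from HR-negative LP (0) to ML (1), measured on mean log2 CPM, HR-positive LP lay at 0.91 for Nr3c2, 0.89 for Pgr, 0.88 for Esr1 and 0.85 for Greb1. For the members lower in ML it lay at 0.53 (Nr3c1) and 0.43 (Vdr). The HR-negative LP end for Greb1 rests on counts of 0, 1 and 0, so its position depends on the prior count added before the log. Over 4519 genes that differed between the ends by an absolute log2 fold change above 1, the median was 0.85 for the 2317 higher in ML and 0.48 for the 2202 lower in ML.

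Ratios within a library do not depend on its scaling, but the ratio with Pgr is in part set by the PR-cre/YFP sort. The ratio of Pgr to Esr1 counts was 0.703, 0.768 and 0.392 for the HR-negative LP libraries, 1.71, 2.83 and 2.28 for those of HR-positive LP and 1.75, 3.36 and 2.88 for those of ML. Both YFP-positive populations lay above HR-negative LP without overlap (exact two-sided permutation p = 0.1, the smallest that 3 against 3 can give, and 0.15 adjusted over 6 tests), while they overlapped with each other (exact permutation p = 0.5). The ratio of Greb1 to Esr1 was 0.00303, 0.0503 and 0.0153 for HR-positive LP and 0.00276, 0.0668 and 0.0415 for ML, with overlap (exact permutation p = 0.7).

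The genes nearest to each member in pattern over the 9 libraries were found by the root mean square difference of log2 CPM after centring. Candidates were named genes with a mean log2 CPM above 3, a level that Greb1 itself did not reach. Pgr was closest to Rbm20 (0.12), Fzd10 (0.22) and Mycl (0.23), and Esr1 to Got1 (0.10), Syne1 (0.13) and Itih5 (0.19). Nr3c2 was closest to Herc2 (0.10), Hipk2 (0.15) and Ubr4 (0.15), and Nr3c1 to Cx3cl1 (0.10), Fbxw7 (0.11) and Ext1 (0.11). Vdr was closest to Smox (0.20), Scd1 (0.22) and Slc39a14 (0.28), and Pgrmc1 to Arf1, Gnb1 and Bsg (0.06 each). Greb1 was farther from its nearest candidates, Aoc1 (0.55), Tmem86a (1.04) and Gpx3 (1.07). Its log2 values in HR-negative LP were set largely by the prior count. Rbm20, Got1, Smox, Scd1 and Aoc1 stayed among the closest 3 when any 1 library was left out. Slc39a14 did so in 0 of 9 such runs, Arf1 and Gnb1 in 3 and Bsg in 2, and Tmem86a was not among the closest 3 of Greb1 with a prior count of 0.5. The other genes named here stayed in 4 to 8 runs.

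Genes known to respond to estrogen or progesterone moved in both directions. Of 20 tested, 7 were higher and 4 lower in HR-positive than in HR-negative LP, beside 17.2% and 12.8% of all tested genes (median log2 fold change -0.23, beside 0.0054 for all tested genes). Areg, an EGF receptor ligand induced by estrogen, had 12.6, 36.7 and 16.3 CPM in the HR-negative LP libraries, 610, 708 and 817 in those of HR-positive LP and 916, 1016 and 1207 in those of ML. Wnt4, a progesterone target in the gland, had 4.56, 15.9 and 4.22 CPM, then 171, 254 and 192, then 227, 309 and 250.1. Neither gene overlapped between HR-negative LP and the other populations. Rerg went the other way, at 29.6 to 41.0, 8.37 to 9.97 and 0 to 0.306 CPM. Tnfsf11, which encodes the progesterone-induced cytokine RANKL, had no count in HR-negative or HR-positive LP, which allows up to 0.0171 and 0.0115 CPM over each group, and 11 counts in ML, all in replicate 3. Xbp1 and Ccnd1 did not pass in any comparison with edgeR. Between ML and HR-positive LP 4 of them were lower, beside 6.7% of all tested genes (median 0.08, beside 0.01), among them Rerg (-6.25, SE 0.60) and Egr3 (-4.63, SE 0.55).

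Among genes known to respond to glucocorticoids or mineralocorticoids, more were lower than higher from HR-negative LP to HR-positive LP and from there to ML. Of 16 tested, 8 were lower and 1 higher in HR-positive than in HR-negative LP, beside 12.8% and 17.2% of all tested genes (median log2 fold change -0.92, beside 0.0054). In ML 9 were lower than in HR-positive LP, beside 6.7% (median -1.07, beside 0.01). The 16 include Hsd11b1, among these 9, and Hsd11b2, which are enzymes of glucocorticoid conversion. Fkbp5, a receptor chaperone gene induced by glucocorticoids, had 54.7, 76.9 and 124 CPM in the HR-negative LP libraries, 18.4, 26.4 and 38.6 in those of HR-positive LP and 9.68, 6.04 and 5.93 in those of ML, without overlap. Tsc22d3, which encodes GILZ, was at 96.1 to 145, 67.2 to 77.3 and 38.7 to 47.4 CPM. Per1, a clock gene, fell by a log2 fold change of -1.33 (SE 0.17) from HR-negative to HR-positive LP and of -2.10 (SE 0.18) from there to ML. The epithelial sodium channel genes, mineralocorticoid targets, went separate ways: Scnn1a was at 51.3 to 73.6, 186 to 219.8 and 211 to 259 CPM, and Scnn1b at 137 to 179, 52.3 to 66.4 and 16.5 to 20.6 CPM. Sgk1, induced by both hormones, did not pass in any comparison with edgeR. A set of 10 immediate early genes, chosen after the data were seen, summed to 29819 to 49145, 24764 to 30078 and 13810.0 to 19913 CPM; its part in these levels was not tested.

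**Figure D4:**
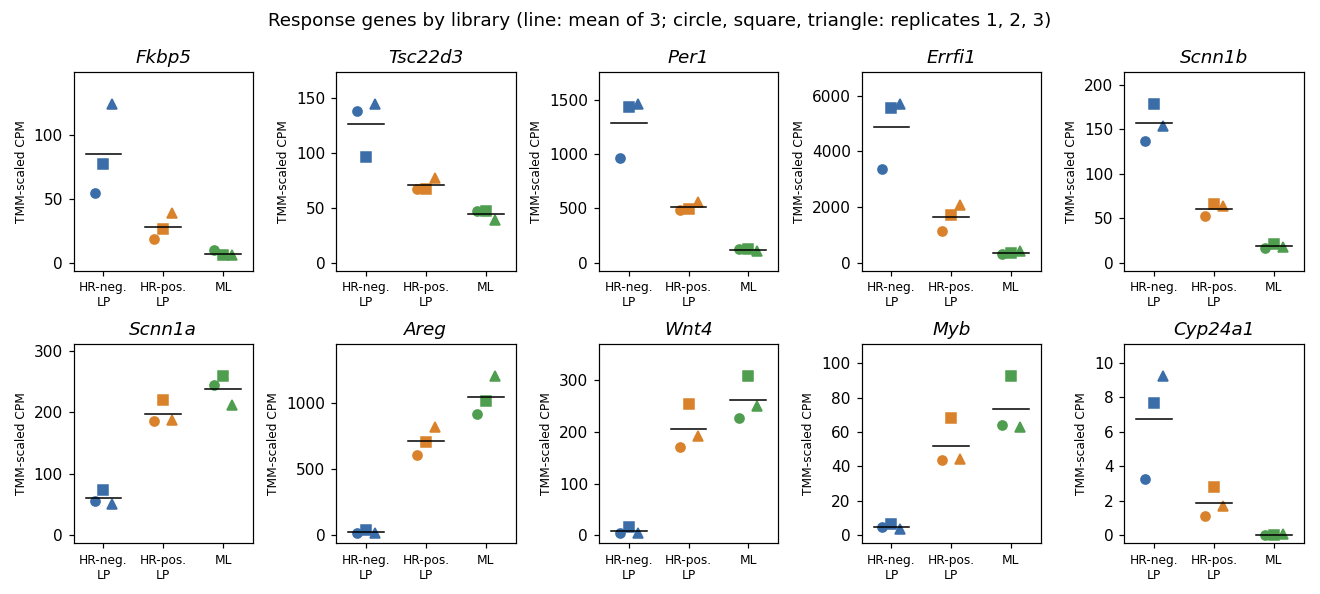
TMM-scaled CPM (vertical axes) of hormone response genes in the 9 libraries, by population; symbols are replicates and lines are means of 3. Fkbp5 and Tsc22d3 are highest in HR-negative LP and lowest in ML, and Areg and Wnt4 are lowest in HR-negative LP.

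The enzymes that interconvert active and inactive glucocorticoids were low. Hsd11b2, which inactivates glucocorticoids, was at 0 to 0.358, 0.143 to 0.42 and 0 to 0.33 CPM. Hsd11b1, which regenerates them, was at 0.823 to 3.05 and 0.28 to 0.482 CPM and had no count in ML, which allows up to 0.0251 CPM over the group. Of 10 tested genes of steroid conversion, Hsd17b4 (log2 fold change 1.08, SE 0.16) and Hsd3b7 (1.38, SE 0.13) were the 2 higher in HR-positive than in HR-negative LP, beside 17.2% of all tested genes (median 0.06, beside 0.0054).

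The vitamin D pathway list holds partners and targets of the receptor and also genes of vitamin D synthesis and uptake. Of 11 tested, 1 was higher and 2 were lower in HR-positive than in HR-negative LP, near the background of 17.2% and 12.8% of all tested genes (median log2 fold change -0.91, beside 0.0054). In ML 4 were lower than in HR-positive LP, beside 6.7% (median -0.07, beside 0.01). Cyp24a1, the vitamin D degrading enzyme gene and a direct target of the receptor, had 3.23, 7.65 and 9.23 CPM in the HR-negative LP libraries and 1.12, 2.78 and 1.70 in those of HR-positive LP. In ML it had 0, 0 and 2 counts. Its order among HR-negative LP libraries was that of Vdr, and its order among HR-positive LP libraries was not. Rxra, the partner of the receptor, did not pass in any comparison with edgeR, at 74.0 to 97.1, 99.9 to 119 and 96.4 to 131 CPM. Tgm2, a transglutaminase gene, was the 1 that was higher (3.78, SE 0.40), and was lowest in replicate 1 of both YFP-positive populations, as were Greb1 and Pgr.

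Of 17 other nuclear receptor genes tested, 4 were higher and 3 lower in HR-positive than in HR-negative LP, beside 17.2% and 12.8% of all tested genes (median log2 fold change 0.30, beside 0.0054). Esrrg, an orphan receptor gene related to the estrogen receptors, was at 3.97 to 5.70, 21.2 to 23.3 and 26.7 to 36.8 CPM, and Nr2f2, also known as COUP-TFII, at 1.22 to 3.45, 10.9 to 13.0 and 15.3 to 16.5 CPM. Thrb, a thyroid hormone receptor gene, was at 11.6 to 14.7, 4.26 to 5.14 and 0.681 to 1.54 CPM. Esr2, the gene of estrogen receptor beta, had 9 counts in all, in HR-negative LP replicate 2, and 0 in the other populations, which allows up to 0.0115 and 0.0251 CPM over each group.

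Of 10 tested membrane steroid receptor genes, 3 stood higher and 1 lower in HR-positive than in HR-negative LP, beside the same background shares (median log2 fold change 0.17, beside 0.0054). Paqr6, a membrane progestin receptor gene, ran against Pgr, at 55.8 to 100.3, 16.7 to 25.1 and 0.165 to 0.402 CPM. Its log2 fold change was -1.96 (SE 0.26) in that comparison and -6.32 (SE 0.37) between ML and HR-positive LP. Pgrmc2, the relative of Pgrmc1, did not pass in any comparison with edgeR, at 44.8 to 59.5, 36.6 to 51.4 and 42.6 to 55.0 CPM.

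Of 24 tested coregulators 4 were higher and 2 lower in HR-positive than in HR-negative LP, shares no larger than the 17.2% and 12.8% of all tested genes (median log2 fold change 0.16, beside 0.0054). Foxa1, which opens chromatin for the estrogen receptor, was at 39.2 to 70.4, 282 to 392 and 351 to 541 CPM, and the coactivator gene Ncoa1 at 108.4 to 159, 79.4 to 86.0 and 49.5 to 55.2 CPM. Of 12 receptor chaperones St13 (0.56, SE 0.15) was higher, and Hspa8 (-0.61, SE 0.16) and Hsp90aa1 (-0.51, SE 0.15) were lower, beside 17.2% and 12.8% of all tested genes (median -0.07, beside 0.0054). Hsp90ab1 did not pass in any comparison with edgeR.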

How the data were processed

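The authors deposited raw read counts per gene with a gene length, made with featureCounts on mm10 per the submitters' processing notes. Aligner and handling of multiply matching reads: not given in the sources used here. Libraries came from a TruSeq v2 kit per the labels' protocols, which marks no strand, so overlapping genes cannot be told apart. The series table and the sample files differed in 0 cells, and 25275 of 27179 gene IDs matched RefSeq symbols. Counts were filtered with filterByExpr, scaled by TMM and tested in 1 edgeR (4.0.16, under R 4.3.3) quasi-likelihood fit over 9 libraries, with Benjamini-Hochberg adjustment over 15910 genes and calls at 0.05. The SE is the log2 fold change over the square root of F. CPM per kb uses the deposited length, in place of a merged exon length as first planned. Likeness used log2 CPM with a prior count of 2. The scripts were tested on simulated data. Alternatives used limma 3.58.1 (voom), DESeq2 1.42.0, other scalings and filters, fits of 2 groups, a replicate block and each library left out.

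The members and the 8 gene lists (149 entries, 147 found, 120 tested) were chosen with earlier results of these data known. Named are the members, up to 3 called genes per list and comparison by smallest p, up to 2 abundant uncalled genes per list, 12 genes always given and the 3 genes most like each member; not all that the rule allows are printed, and 1 of the 12 is not reported here. Dcn, Col3a1, Col1a2, Pdgfra, Vwf, Cdh5, Kdr, Epcam and Krt19 were picked from the marker lists after their values were seen. Intervals and limits on counts cover counting error only.

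Same-numbered libraries were compared by the correlation, across genes, of their deviations from the group means. It was 0.183, 0.121 and 0.189 between ML and HR-positive LP, 0.133, 0.0389 and 0.147 between the LP populations, and 0.0526, 0.0254 and 0.0849 between ML and HR-negative LP. Libraries of unlike number had -0.142 to -0.0503 between ML and HR-positive LP. Since deviations are taken from the group mean, values for like and unlike numbers depend on each other. The numbers were taken to pair ML with HR-positive LP, from the data alone, since no label says so.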

Additional observations from a re-analysis of the deposited data

How the results depend on the processing

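Pgr, Esr1, Nr3c1, Nr3c2, Vdr and Greb1 kept their direction under the 18 alternatives run in each comparison. The uncalled Pgrmc1 changed sign between HR-positive and HR-negative LP with library totals alone (0.025) and without single libraries (-0.139 to 0.012), and between ML and HR-negative LP without single libraries (-0.015 to 0.136). Library totals alone shifted the median log2 fold change of all genes by 0.11 and 0.16 in these comparisons, and gave 3182 genes higher and 1535 lower in HR-positive LP against 2731 and 2033 with TMM. There, members lower were 1 in place of 2 with library totals alone, limma voom and the fit of 2 groups (Vdr adjusted p = 0.0559, 0.0547 and 0.0968), and 1 to 2 without single libraries. Genes lower were 1211 to 2290 without single libraries, fewest with HR-positive LP replicate 2 left out, and 1329 with its replicate 1 left out.

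Between ML and HR-positive LP 15 genes were higher, and 30 with library totals alone, 88 with DESeq2, 50 with limma voom, 71 with the replicate block, 216 with only the 2 groups, 1422 with the 2 groups and the block, and 4 to 63 without single libraries. Genes lower were 1066, and 2182 with the 2 groups and the block. Members higher were 1 with only the 2 groups (Esr1, adjusted p = 0.023) and 3 with the block added. Members lower were 2 with no filter, with the block, with the 2 groups and with both, and 0 to 2 without single libraries. The replicate block over 9 libraries changed no other call of a member. Lengths of the longest annotated transcript gave Esr1 19.4 and 25.6 and Nr3c2 11.4 and 12.5 CPM per kb in HR-positive LP and ML. For Vdr the 2 lengths were near each other (4354 bases deposited and 4370 longest), with 25.1 CPM per kb in HR-positive LP by the deposited one. The order of Esr1 and Vdr in HR-positive LP, and the shares, thus depend on the length used. Low counts limit the size of the Greb1 ratios, since 1 count in HR-negative LP, in its deepest library, stands against 599 and 822. The causes of these shifts were not tested.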
